A study of Mus musculus with 2 samples.

Results

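The 10 genes described here are 4 ligands of the Notch pathway (Dll1, Dll4, Jag1, Jag2), 2 of its receptors (Notch1, Notch4) and 4 genes that Notch signalling switches on in arterial endothelium (Hes1, Hey1, Hey2, Efnb2). They were chosen by name from the 27998 gene names of the files by their place in the pathway, and all 10 were present in both libraries. The cells came from the aortic lining of 1 old mouse (18 months) and 1 young mouse (8 weeks), both C57BL6/J with no genetic change or treatment named in the labels. The endothelial surface was exposed, loosened with trypsin and scraped off, and a droplet method then counted the 3′ end of each transcript by its unique molecular identifier (UMI). Each age is 1 animal and 1 library, so age, animal and library cannot be told apart, and no test between ages was possible. All intervals below are exact 95% intervals that cover counting error only.

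Notch receptors are bound by Delta and Jagged ligands on a neighbouring cell, are cut by ADAM proteases and γ-secretase, and release an intracellular fragment that joins the DNA-binding protein RBPJ and Mastermind proteins at target genes. Among the first targets are the Hes and Hey genes, which encode basic helix-loop-helix repressors. In arteries the pathway is known for setting and keeping arterial identity, of which ephrin-B2, the product of Efnb2, is a classical mark.

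RBPJ is known to prefer sites that hold GTGGGAA, so promoter windows of 300 bases (250 before to 50 after the start) were searched for these letters on both strands in RefSeq's table for GRCm38.p6. Windows were matched for 8 of the members, with 2 for Dll1. Hes1 and Hey1 were not searched. Of the 32851 windows of that length in the table, 6.38% hold the motif. Among the 8 members searched only the Hey2 window holds it, with 2 matches, and it is printed for that reason, with both matches in capitals. The first lies 207 bases before the start and reads TTCCCAC, the reverse complement, and the second begins 4 bases before the start. The Dll4 window is printed beside it because Dll4 was the ligand whose level differed most between the libraries. It holds no match. A match is a description of these letters, not a binding site.
Hey2, minus strand, chr10:30842734-30843033: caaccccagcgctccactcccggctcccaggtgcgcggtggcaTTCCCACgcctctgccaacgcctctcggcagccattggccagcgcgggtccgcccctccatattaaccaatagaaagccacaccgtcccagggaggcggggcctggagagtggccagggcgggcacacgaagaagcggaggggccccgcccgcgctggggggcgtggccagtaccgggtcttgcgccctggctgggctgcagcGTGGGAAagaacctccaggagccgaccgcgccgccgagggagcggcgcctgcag
Dll4, plus strand, chr2:119325534-119325833: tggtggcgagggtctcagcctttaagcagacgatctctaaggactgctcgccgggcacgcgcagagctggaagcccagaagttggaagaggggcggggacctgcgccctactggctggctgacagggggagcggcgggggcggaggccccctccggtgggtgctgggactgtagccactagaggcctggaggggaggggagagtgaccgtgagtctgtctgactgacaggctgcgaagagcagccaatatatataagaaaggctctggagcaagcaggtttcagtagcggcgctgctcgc

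In the GENCODE vM21 annotation of GRCm38 the ligands lie at chr17:15367354-15376872 (Dll1), chr2:119325784-119335962 (Dll4), chr2:137081456-137116644 (Jag1) and chr12:112907819-112929776 (Jag2), and the receptors at chr2:26457903-26516663 (Notch1) and chr17:34564268-34588503 (Notch4). The targets lie at chr16:30064384-30067796 (Hes1), chr3:8663359-8667256 (Hey1), chr10:30832359-30842801 (Hey2) and chr8:8617434-8661242 (Efnb2). No 50-base stretch of the last 500 bases of their transcripts occurs in a transcript of a gene outside the list. The members could thus be told apart there from genes outside the list. Stretches shared between members, such as Hey1 and Hey2, were not examined. Notch1, Notch4, Dll1 and Dll4 have an annotated gene on the opposite strand. On their own strand, Efnb2 has 3, Notch1 has Mir6996 and Jag2 has Mir6941. Whether the authors counted by strand is not given in the sources used here, so whether reads of opposite-strand pairs were kept apart is not known. Reads of same-strand pairs cannot be told apart by strand.

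The old library held 3408 barcodes with 19171045 UMIs and the young library 1366 barcodes with 12576023 UMIs, with medians of 4737 and 7558.5 UMIs per barcode. The libraries shared 11 barcodes. After filtering, 3330 old and 1359 young cells were clustered without the members and without 61 other Notch pathway genes, and clusters were named from fixed markers. Endothelial-like (EC-like) cells made up 71.7% of old cells (2387) and 79.5% of young cells (1081), and their 12 endothelial markers summed to 10186 CPM in old (UMIs scaled to the total of the class in a library) and 10602 CPM in young. Pecam1, the adhesion molecule CD31, averaged 3485 CPM in old and 3784 CPM in young EC-like cells, against 318 and 157 CPM in fibroblast-like cells. Markers of some other cells were higher in old EC-like cells. The 6 erythroid markers summed to 604 CPM in old and 25.4 CPM in young. The 8 macrophage markers summed to 103 and 8.95 CPM, with Csf1r, Adgre1 and Mrc1 at 0 in young. The 8 smooth muscle markers summed to 327 CPM in old and 309 CPM in young, with Cnn1, Des and Actg2 at 0 in young. Other lists were lower in old: the 8 fibroblast markers summed to 421 CPM in old and 458 CPM in young, and the 5 Schwann markers to 29.2 and 39.7 CPM. The part of other cells' RNA in the values below was not tested. The exception is where values are given for cells without haemoglobin, macrophage or smooth muscle UMIs.

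EC-like cells were divided into clusters led by Coch, Sost and Adra2a (468 old and 457 young cells), a cluster led by Bcan, Isl1 and Frzb (757 old and 15 young cells) and the others (1162 old and 609 young cells). The libraries barely shared clusters: in the Coch subtype 1 cluster held 464 of the old cells and another held 426 of the young cells, and among the other EC-like cells 1 cluster held 1138 old and another 587 young cells. Coch itself had 221 CPM in the old and 290 CPM in the young Coch subtype, against 13.3 and 28.3 CPM in the other EC-like cells. Coch is among the markers that name the subtype, so this contrast follows in part from the definition. It does not show that the old and young clusters hold the same kind of cell. The old Bcan subtype and the old other EC-like cells shared their markers in part. Isl1 had 192 and 172 CPM there, Bcan 156 and 99.7 CPM, and Frzb 175 and 85.4 CPM. In the young other EC-like cells Isl1 had 144 CPM, Bcan 24.9 CPM and Frzb 103 CPM, so the others of the 2 libraries are not matched cells. The remaining classes were 572 old and 239 young fibroblast-like cells, 155 and 13 monocyte or macrophage-like cells, 123 and 10 T or NK-like cells that also carried B cell markers, 37 and 1 erythroid-like cells, and an unnamed cluster of 56 and 15 cells that mixed smooth muscle, lymphatic and endothelial genes.

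Notch1, Notch4, Dll1, Dll4, Hey2 and Efnb2 were higher in EC-like than in fibroblast-like cells of both libraries. Their ratios ran from 8.05-fold (Efnb2, old) to 57.1-fold (Dll1, young, on 2 UMIs in fibroblast-like cells). The share of all genes with such ratios is not given here. Notch1 was 12.8-fold higher in old and 11.7-fold higher in young EC-like cells than in the fibroblast-like cells of the same library, and Hey2 was 9.36-fold and 19.1-fold higher. Hey1 was 5.68-fold higher in old and 2.40-fold higher in young EC-like cells, on 3 and 7 UMIs in fibroblast-like cells. Jag2 had no UMI in the fibroblast-like cells of either library, on 25 and 16 UMIs in EC-like cells. Jag1 stood at 56.0 CPM in old EC-like cells and 55.2 CPM in old fibroblast-like cells, and at 78.2 and 70.5 CPM in the young library, and both intervals of the log2 ratio include 0 (-0.22 to 0.27 and -0.11 to 0.42). Hes1 had opposite orders in the libraries, as described further on. Beside these levels, the shares of cells with a UMI were taken after thinning each cell to 3100 UMIs, which left out shallower cells and kept 1827 old and 980 young EC-like cells.

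**Figure D1:**
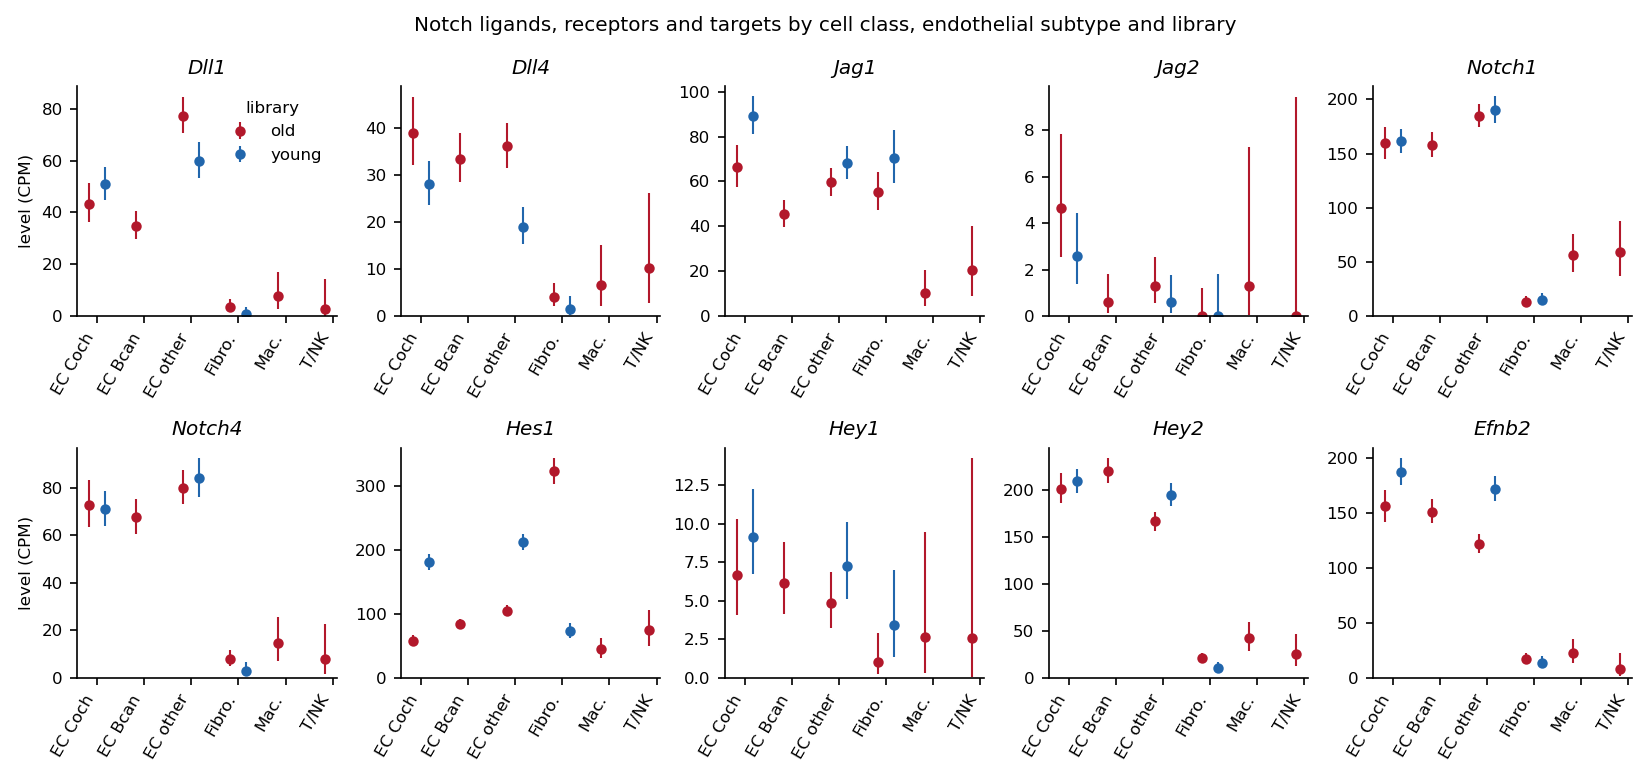
Level of each member in CPM (linear axes from 0) in the 3 endothelial subtypes (EC), fibroblast-like cells (Fibro.), monocyte or macrophage-like cells (Mac.) and T or NK-like cells, for the old (red, left) and young (blue, right) library, where a group holds at least 50 cells. Bars are exact 95% counting intervals. Hes1 stands highest in old fibroblast-like cells (324 CPM), and Notch1, Notch4, Dll1, Dll4, Hey2 and Efnb2 stand highest in endothelial groups.

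Between the libraries, EC-like cells differed in 1 ligand and 1 target by more than 1.5-fold. Counting the 9 members whose UMIs in old and young sum to 100 or more, 1 was higher in old by at least that fold, against 5.19% of the 10023 genes with as many UMIs, and 1 was lower, against 5.01% of them. Those members were Dll4 and Hes1. The 9 members had a median log2 ratio of -0.08, and all those genes one of 0.06. Jag2, with 25 UMIs in old and 16 in young, did not reach 100 UMIs.

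Dll4, the ligand best known from arterial and sprouting endothelium, had 505 UMIs (35.8 CPM) in old and 237 UMIs (23.6 CPM) in young EC-like cells. Its log2 ratio was 0.60 (0.38 to 0.83), or 1.52-fold, which lies just past the 1.5-fold line. It stayed above 0 under all 10 other ways of scaling, filtering and classing the cells, from 0.52 to 0.63, but did not reach 1.5-fold under 6 of them. At equal depth 9.09% of old (7.81 to 10.5%) and 6.53% of young (5.06 to 8.26%) EC-like cells held a Dll4 UMI, and those intervals overlap. In fibroblast-like cells, taken here as the level of free RNA (median depth before thinning 4830 UMIs in old and 8440 in young, against 4995 and 7396 in EC-like cells), the shares were 1.49% in old and 0% in young (0 of 222 cells, which allows up to 1.35%).

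The higher Dll4 level in old was seen in both subtypes that could be compared. In the Coch subtype Dll4 had 38.9 CPM in old (117 UMIs) and 28.1 CPM in young (141 UMIs), a log2 ratio of 0.47 (0.11 to 0.84). With cells thinned to equal depth that ratio was 0.09. In the other EC-like cells it had 36.1 CPM in old (225 UMIs) and 19.0 CPM in young (94 UMIs), a log2 ratio of 0.93 (0.57 to 1.29). Whether the ratios of these subtypes differ was not tested. Assigning each cell to a subtype from its own UMIs of the 6 subtype markers, which also gives a young Bcan subtype of 229 cells, gave Dll4 37.4 CPM in old and 23.7 CPM in young Coch cells, 35.4 CPM in old and 27.6 CPM in young Bcan cells, and 33.6 CPM in old and 20.3 CPM in young cells of neither kind. The log2 ratios were 0.66 (0.30 to 1.02) in Coch cells, 0.36 (-0.07 to 0.82) in Bcan cells and 0.73 (0.24 to 1.23) in the rest, so the interval in Bcan cells includes 0.

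Dll1, a ligand tied to arterial identity, had 55.4 CPM in all old and 55.5 CPM in all young EC-like cells (log2 ratio -0.00, -0.16 to 0.16). Within the old library its level differed between subtypes. Dll1 had 34.8 CPM in the Bcan subtype, 43.3 CPM in the Coch subtype and 77.4 CPM in the other EC-like cells. The log2 ratio of Bcan over the others was -1.15 (-1.41 to -0.90) and that of Coch over the others -0.84 (-1.13 to -0.56). Of the 8 members with 100 UMIs, Dll1 was the 1 lower by 1.5-fold in the Bcan subtype than in the others, against 3.02% of 8500 genes, and Dll1 and Hes1 were the 2 lower in the Coch subtype, against 4.43% of 8045 genes. None of the 8 was higher by as much, against 1.68% of genes for Bcan and 2.7% for Coch. Both contrasts shrank when cells were assigned by their own subtype markers, to 0.03 (-0.24 to 0.29) for Bcan and -0.26 (-0.56 to 0.04) for Coch. In the young library Dll1 had 51.0 CPM in the Coch subtype and 59.8 CPM in the others, and the interval of that ratio includes 0 (-0.48 to 0.01). None of the 8 members differed by 1.5-fold between these young subtypes, against 3.04% of 8118 genes higher and 3.93% lower in the Coch subtype. Between the libraries Dll1 was -0.24 (-0.55 to 0.07) in the Coch subtype and 0.37 (0.16 to 0.58) in the other EC-like cells. The second turned to -0.30 (-0.60 to 0.00) with subtypes assigned cell by cell, so no direction can be read from it. In the few cells without a haemoglobin, macrophage or smooth muscle UMI (110 old and 365 young) Dll1 had a ratio of -0.45.

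Jag1, the Jagged ligand of endothelium and vascular smooth muscle, had 56.0 CPM in old (791 UMIs) and 78.2 CPM in young EC-like cells (786 UMIs), which gives a log2 ratio between the libraries of -0.48 (-0.62 to -0.34). Its level was lower in old without reaching 1.5-fold. The ratio was -0.43 in the Coch subtype (66.2 CPM in old, 89.2 CPM in young) and -0.19 in the other EC-like cells (59.5 CPM in old, 68.1 CPM in young), and the second interval includes 0 (-0.41 to 0.02). In the cells without a haemoglobin, macrophage or smooth muscle UMI the ratio over all EC-like cells was -0.999, past 1.5-fold, and in the other EC-like cells it was -0.94 with classes from each cell's own markers. Within the young library Jag1 was higher in the Coch subtype than in the others by 0.39 (0.18 to 0.60), and in the old library it was higher in the Coch than in the Bcan subtype (66.2 against 45.3 CPM, log2 ratio 0.55, 0.26 to 0.83). With subtypes assigned cell by cell that contrast of the old library was 0.13 (-0.13 to 0.38).

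Jag2, the other Jagged ligand, was barely detected, with UMIs in 24 old EC-like cells. Most of its UMIs lay in the Coch subtype of both libraries: 14 of 25 in old and 13 of 16 in young. That is 4.66 CPM in old and 2.59 CPM in young Coch cells, against 1.28 and 0.61 CPM in the other EC-like cells and 0.61 CPM in the old Bcan subtype. The log2 ratio of Coch over the others was 1.86 (0.51 to 3.32) in old and 2.09 (0.23 to 4.55) in young. The direction was the same in both animals, on 14 and 13 UMIs. With subtypes assigned cell by cell it remained above 0 in both, at 1.998 (0.16 to 4.44) in old and 0.44 (-1.32 to 2.55) in young.

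The receptors were nearly level between the libraries. Notch1, the main receptor of arterial endothelium, had 170 CPM in old and 176 CPM in young EC-like cells (log2 ratio -0.04, -0.13 to 0.04). Notch4, whose expression is largely endothelial, had 74.2 CPM in old and 76.9 CPM in young (log2 ratio -0.05, -0.19 to 0.09). Both intervals include 0. At equal depth 40.4% of old and 40.7% of young EC-like cells held a Notch1 UMI, and 18.4% and 19.4% a Notch4 UMI. Both receptors were slightly lower in the Coch subtype than in the other EC-like cells of the young library (log2 ratios of -0.23 and -0.24). In the old library the Coch ratios were -0.22 (-0.37 to -0.06) for Notch1 and -0.13 (-0.37 to 0.10) for Notch4. The old Bcan ratios over the others were -0.23 and -0.24. Cell by cell, the intervals of Notch4 in young Coch cells and of both receptors in old Bcan cells include 0. Outside the endothelium, Notch1 also reached 56.1 CPM in old monocyte or macrophage-like cells and 58.8 CPM in old T or NK-like cells, against 13.3 CPM in old fibroblast-like cells. Endothelial genes were also higher in those immune classes than in old fibroblast-like cells: Pecam1 had 604 CPM in the macrophage-like and 491 CPM in the T or NK-like cells, against 318 CPM, and Cdh5 had 74.4 and 66.4 CPM, against 39.3 CPM. The part of endothelial RNA in these Notch1 levels was not tested. Notch3, the receptor of smooth muscle, had no UMI in the EC-like or fibroblast-like cells of either library. Notch2 had 19.98 CPM in old and 28.9 CPM in young EC-like cells, and 66.2 and 110 CPM in fibroblast-like cells.

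Hes1, a repressor and a common Notch target that other signals also induce, was the member that differed most between the libraries in EC-like cells. It had 1237 UMIs (87.6 CPM) in old and 1976 UMIs (197 CPM) in young EC-like cells, which gives a log2 ratio between the libraries of -1.16 (-1.27 to -1.06). Of the genes tested, 1.497% had a lower ratio. At equal depth 22.6% of old (20.7 to 24.6%) and 38.1% of young (35.0 to 41.2%) EC-like cells held a Hes1 UMI. The UMIs were spread over 815 old and 667 young cells, and the 5% of cells that held most carried 31.6% and 25.1% of them.

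The lower Hes1 level in old EC-like cells was found in every subtype that could be compared. In the Coch subtype Hes1 had 57.2 CPM in old and 181 CPM in young, a log2 ratio of -1.66 (-1.91 to -1.43), and in the other EC-like cells 105 CPM in old and 213 CPM in young, a ratio of -1.02 (-1.16 to -0.87). With subtypes assigned cell by cell the Bcan subtype had 95.3 CPM in old and 199 CPM in young. Of the 8 members with 100 UMIs, Hes1 was the 1 lower by 1.5-fold in the Coch subtype, where 5.13% of 7520 genes were, and the 1 lower in the other EC-like cells, where 4.92% of 8498 genes were. In these comparisons 0 members (4.23% of genes) and 1 member, Dll4 (4.79% of genes), were higher by as much. Across all EC-like clusters of at least 50 cells, the old ones ran from 57.0 to 105 CPM and the young ones from 180 to 214 CPM. Each of these clusters came almost wholly from 1 library, so these ranges restate the difference between the libraries. Within the old library Hes1 was lower in the Coch subtype than in the other EC-like cells by a log2 ratio of -0.88 (-1.13 to -0.63), and within the young library by -0.23 (-0.36 to -0.10). With subtypes assigned cell by cell these contrasts were -0.39 (-0.64 to -0.14) in old, short of 1.5-fold, and -0.37 (-0.52 to -0.22) in young.

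**Figure D2:**
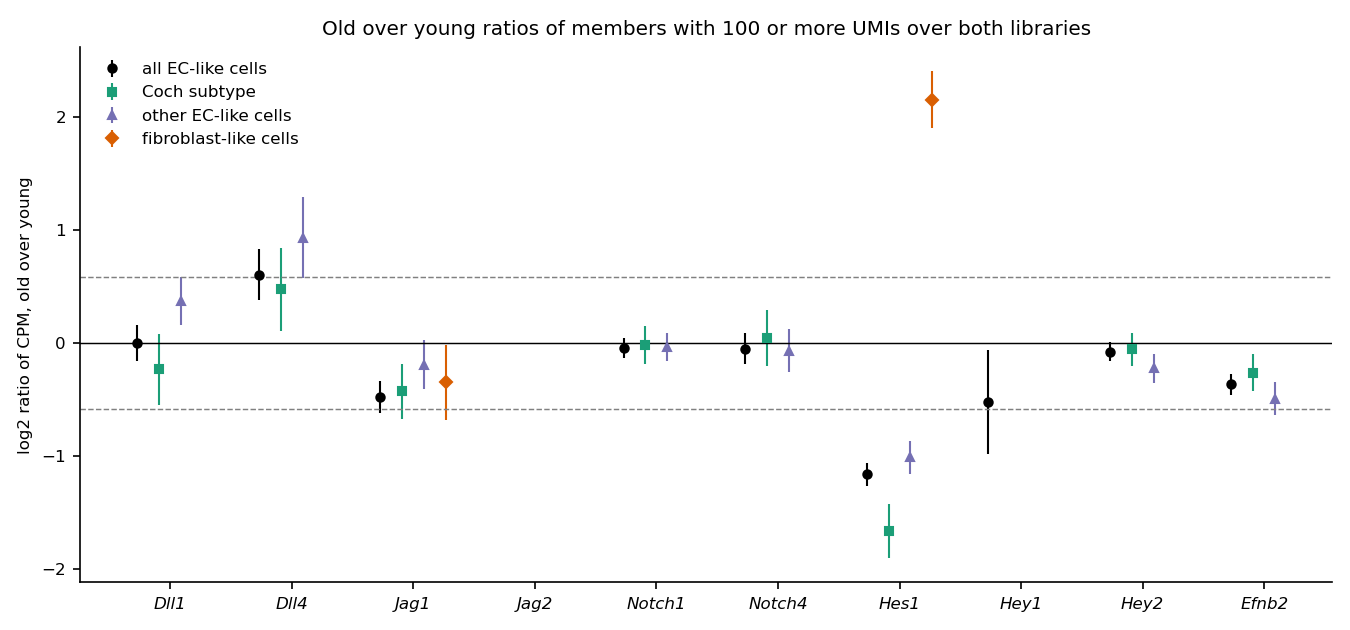
Log2 ratio of CPM, old over young, for each member in all EC-like cells (circles), the Coch subtype (squares), the other EC-like cells (triangles) and fibroblast-like cells (diamonds), where old and young UMIs sum to 100 or more; bars are exact 95% counting intervals and dashed lines mark 1.5-fold. Hes1 lies below -1 in all 3 endothelial sets and at 2.14 in fibroblast-like cells.

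In fibroblast-like cells Hes1 went the other way. It had 975 UMIs (324 CPM) in old and 151 UMIs (73.4 CPM) in young fibroblast-like cells, 4.42-fold higher in old (log2 ratio 2.14, 1.89 to 2.40). At equal depth 44.1% of old and 19.8% of young fibroblast-like cells held a Hes1 UMI. Both fibroblast-like clusters showed it: the cluster led by Igfbp5, Dpt and Sema3c had 344 CPM in old and 85.2 CPM in young (log2 ratio 2.01), and the cluster led by Gdf10 and Mfap4 had 193 CPM in old and 51.5 CPM in young (log2 ratio 1.90). The intervals of old and young do not overlap in either cluster.

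Hes1 was therefore lower in EC-like than in fibroblast-like cells of the old mouse (log2 ratio -1.89, -2.01 to -1.77) and higher in those of the young mouse (1.42, 1.18 to 1.67). Of the 2 members with 100 UMIs in fibroblast-like cells, Hes1 and Jag1, 1 was higher in old by 1.5-fold, against 4.53% of 5606 genes, and 0 were lower, against 10.4%. Jag1 had 55.2 CPM in old and 70.5 CPM in young fibroblast-like cells (log2 ratio -0.35, -0.68 to -0.02). The old fibroblast-like cells also carried more UMIs of erythroid markers (1349 CPM in old, 25.8 CPM in young) and of endothelial markers (1184 and 600 CPM), and their summed fibroblast markers were lower (13666 and 23557 CPM). Their part in the Hes1 ratio was not tested.

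Hes1 is also known as a gene that responds quickly to stimulation. The immediate early genes, which rise within minutes of stress or handling, are given beside it. They were added because earlier results of these data showed them lower in old, so that direction was known beforehand. Of 15 such genes with 100 UMIs in EC-like cells, 12 were lower in old by 1.5-fold, against 5.01% of 10023 genes. By the same fold 0 were higher, against 5.19%, and the median log2 ratio of the 15 was -1.16. Fos, a subunit of AP-1, had 219 CPM in old and 874 CPM in young (log2 ratio -1.995), and Jun, its partner, had 694 and 1102 CPM (-0.67). Egr1, a zinc-finger factor, had 245 CPM in old and 546 CPM in young (-1.16), and Atf3, a stress-induced factor, had 12.8 and 110 CPM (-3.11). The whole list summed to 4334 CPM in old and 9172 CPM in young EC-like cells, and so moved the same way as Hes1 there. In fibroblast-like cells it summed to 8214 CPM in old and 11507 CPM in young. There 8 of 16 were lower by 1.5-fold, against 10.4% of 5606 genes, and 1, Ier3, was higher (236 and 123 CPM), against 4.53%. Hes1 was higher in old in those cells. EC-like cells with a Fos UMI held Hes1 in 25.4% of old (22.1 to 28.8%) and 40.3% of young cells (36.3 to 44.4%), and those without Fos in 21.0% (18.7 to 23.5%) and 34.8% (30.2 to 39.7%). These pooled shares mix the subtypes. In old cells with and without Fos, Hes1 was held by 13.0% and 13.2% in the Coch subtype and 19.4% and 20.4% in the Bcan subtype. In the old other EC-like cells the shares were 31.6% and 26.5%. In young cells they were 37.7% and 36.6% in the Coch subtype and 42.4% and 34.1% in the others. Whether early gene induction had a part in the Hes1 levels was not tested.

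**Figure D3:**
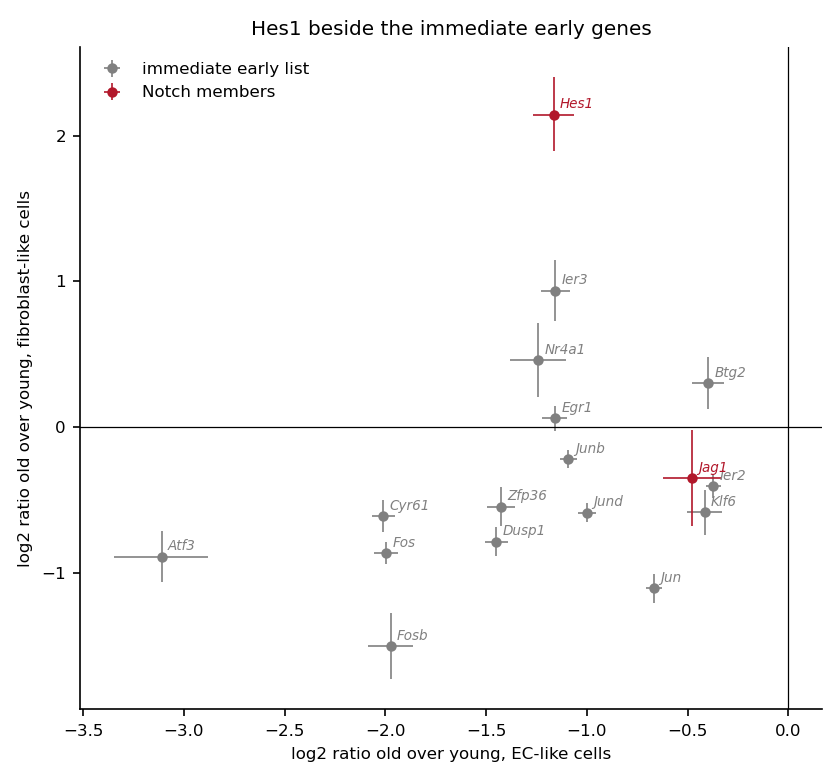
Log2 ratio of old over young in fibroblast-like cells against that in EC-like cells, for the 15 immediate early genes (grey) and 2 members (red) with at least 100 UMIs in both comparisons; bars are exact 95% counting intervals. All points lie left of 0, and Hes1 lies highest, at -1.16 in EC-like cells and 2.14 in fibroblast-like cells.

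The other targets differed less. Hey2, a repressor first known for its part in arterial development, had 193 CPM in old and 204 CPM in young EC-like cells (log2 ratio -0.08, -0.16 to 0.00). Its ratio was -0.06 in the Coch subtype (202 CPM in old, 210 CPM in young) and -0.23 (-0.36 to -0.10) in the other EC-like cells (167 CPM in old, 195 CPM in young). Between the clusters of the old library Hey2 was highest in the Bcan subtype, at 221 CPM, followed by the Coch subtype at 202 CPM, whose counting intervals overlap, and then by the other EC-like cells at 167 CPM. Assigned cell by cell, old Coch cells had 203 CPM, Bcan cells 194 CPM and the rest 187 CPM, and both contrasts with the rest include 0 in their intervals.

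Hey1, its relative, had 80 UMIs in old and 82 in young EC-like cells, or 5.67 and 8.15 CPM (log2 ratio -0.52, -0.99 to -0.06), and 1.42% of old and 2.65% of young cells held a UMI at equal depth. Efnb2 had 139 CPM in old and 180 CPM in young EC-like cells (log2 ratio -0.37, -0.46 to -0.27). It was lower in old in both subtypes, at -0.26 in the Coch subtype (156 CPM in old, 187 CPM in young) and -0.49 in the other EC-like cells (122 CPM in old, 172 CPM in young), short of 1.5-fold in each. In the other EC-like cells the ratio was past 1.5-fold with thinned cells (-0.62) and with a stricter filter on cells (-0.65), -0.19 with subtypes assigned cell by cell, and 0.08 in cells without a haemoglobin, macrophage or smooth muscle UMI. Over all EC-like cells of that last kind it was -0.02. Between the old clusters Efnb2, like Hey2, was higher in the Bcan and Coch subtypes than in the others (151 and 156 CPM against 122 CPM). Cell by cell that order was not seen: Efnb2 had 133 CPM in Bcan cells, 150.01 CPM in Coch cells and 143 CPM in the rest. Across the targets, 29.1% of old (27.0 to 31.2%) and 19.7% of young (17.2 to 22.3%) EC-like cells held no UMI of any of the 4 at equal depth, and 3.996% and 9.08% held 3 of them.

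Ligands and targets were then compared cell by cell within each library, at 3100 UMIs per cell. Most EC-like cells held no ligand UMI (64.0% of old, 64.3% of young), 31.1% and 29.7% held 1 ligand, and 4.71% and 5.61% held 2. A ligand and a receptor were seen together in 18.5% of old and 17.6% of young cells. No receptor UMI was held by 48.6% of old and 48.1% of young cells. With so many cells lacking either kind of UMI, a division into ligand-only and receptor-only cells cannot be read at this depth. For the 16 pairs of a ligand and a target, the target's share was higher among cells with the ligand in 11 pairs in old and 9 pairs in young, and lower in 5 and 7. The intervals of the shares with and without the ligand were apart in 0 of 16 pairs in old and 1 of 16 in young. Within single subtypes they were apart for 1 of 16 pairs in the old Bcan subtype, Dll1 and Efnb2. Efnb2 was in 32 of the 64 cells with Dll1 and in 33.0% of those without. In the young Coch subtype they were apart for 1 of 16, Dll4 and Hey1 (4 cells with both), and in the other subtype sets for 0. These subtype pairs come from 1 thinning draw. Over all old EC-like cells the Efnb2 share with minus without Dll1 averaged -0.27 points over 50 draws (-5.29 to 4.96).

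The 1 pair over all young EC-like cells was Dll4 and Hey1, seen together in 6 young cells: 9.38% of the 64 cells with Dll4 (3.52 to 19.3%) held Hey1, against 2.18% of those without (1.34 to 3.35%). It did not outlast other random draws of the thinning. Over 50 draws the mean shares were 3.20% with and 2.29% without Dll4, and the difference ran from -2.93 to 7.19 points.

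Hes1 gave no clear relation with any ligand. Among cells with Dll4 26.5% of old and 32.8% of young cells held Hes1, against 22.2% and 38.4% of cells without Dll4, so the differences had opposite signs in the 2 libraries. With Dll1 the shares were 24.0% in old and 42.8% in young, against 22.4% and 37.2% without it. With Jag1 they were 22.7% in old and 39.0% in young, against 22.6% and 37.8%. The Dll1 difference was positive in both libraries, at 4.33 points in old and 5.12 points in young as means over 50 draws, but single draws ran from -0.99 to 8.56 points in old and from -2.14 to 11.8 points in young. Dll1 and Hes1 were seen together in 67 old and 62 young cells, where the product of their shares gives 63.1 and 55.2.

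**Figure D4:**
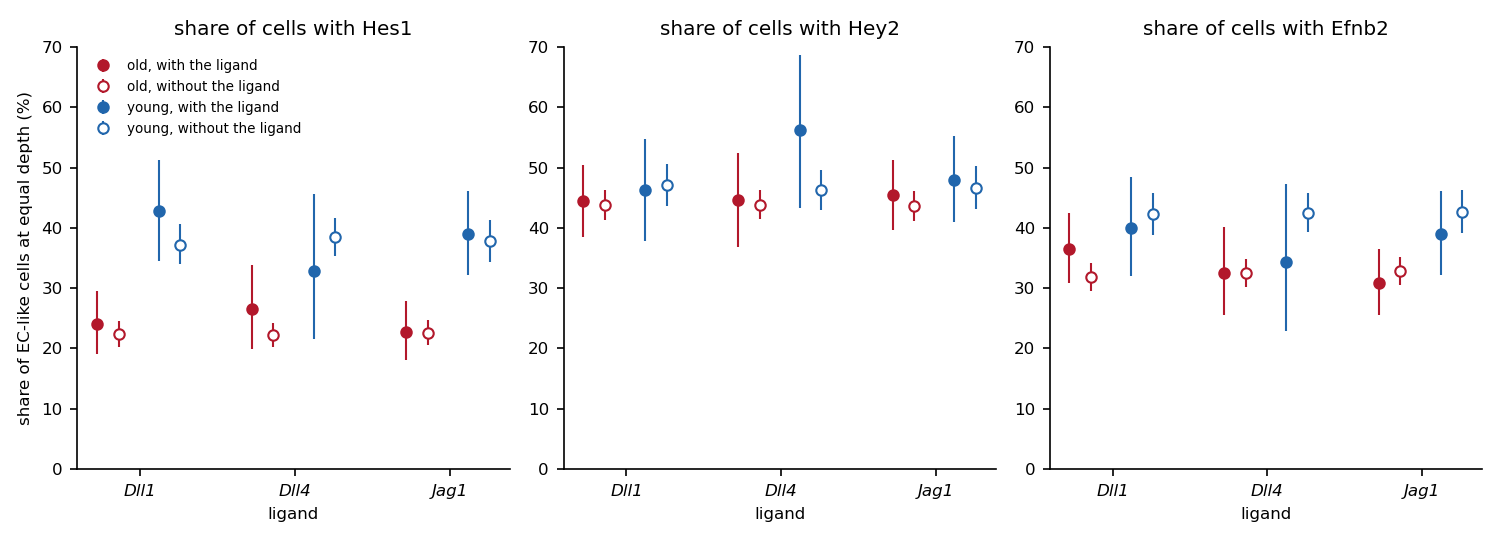
Share of EC-like cells, each thinned to 3100 UMIs, that held a Hes1, Hey2 or Efnb2 UMI, among cells with (filled) and without (open) a UMI of the ligand named below the axis, in the old (red, left) and young (blue, right) library; bars are exact 95% intervals. Filled and open points of a library overlap in their intervals in every pair shown, and the Hes1 shares of young cells lie above those of old cells with and without each ligand.

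Among the ligands themselves, Dll1 and Jag1 were seen together in 42 young cells against 29.6 from the product of their shares: 29.0% of cells with Dll1 (21.7 to 37.1%) held Jag1, against 18.9% of those without (16.3 to 21.7%), intervals that just meet. In the old library 15.1% of cells with Dll1 and 16.3% of those without held Jag1, the opposite order. Of the receptors, Notch1 and Notch4 were seen together in 136 old and 80 young cells, close to the 135.9 and 77.4 cells that their shares give.

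Few of the other pathway genes differed by 1.5-fold between the libraries, though some came close to that line. Of 62 other pathway genes listed, 61 are in the files, 46 had at least 100 UMIs in EC-like cells, and 8 had none (Notch3, Dll3, Dlk1, Dlk2, Hes2, Hes3, Hes5 and Dner). Of the 46, 1 was higher in old by 1.5-fold and 0 were lower, against 5.19% and 5.01% of all genes, with a median log2 ratio of -0.02. The 1 gene was Mib2, a ubiquitin ligase that acts on ligands, at 21.5 CPM in old and 14.1 CPM in young (log2 ratio 0.60, 0.31 to 0.90). With TMM factors Mib2 was at 0.55, short of 1.5-fold, and Lfng (-0.63), Notch2 (-0.59) and Ncstn (-0.59) were past it on the lower side. The list genes with the highest level in old were Nrp1, the neuropilin co-receptor of VEGF (541 CPM in old, 593 CPM in young), Psenen, a γ-secretase subunit (216 and 179 CPM), Adam10, the protease of the first cut (209 and 219 CPM), and Ncor1, a co-repressor (200 and 144 CPM).

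Some list genes were singled out after their values were seen. Rbpj had 37.1 CPM in old and 34.0 CPM in young EC-like cells (log2 ratio 0.13, -0.07 to 0.33). Lfng, the Fringe glycosyltransferase that tunes which ligands Notch responds to, had the lowest ratio, at 45.0 CPM in old and 66.9 CPM in young (-0.57, -0.73 to -0.41). Nrarp, a target that feeds back on the pathway, had 53.1 CPM in old and 68.4 CPM in young (-0.37, -0.52 to -0.22), and Notch2 had a ratio of -0.53 (-0.78 to -0.29).

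**Figure D5:**
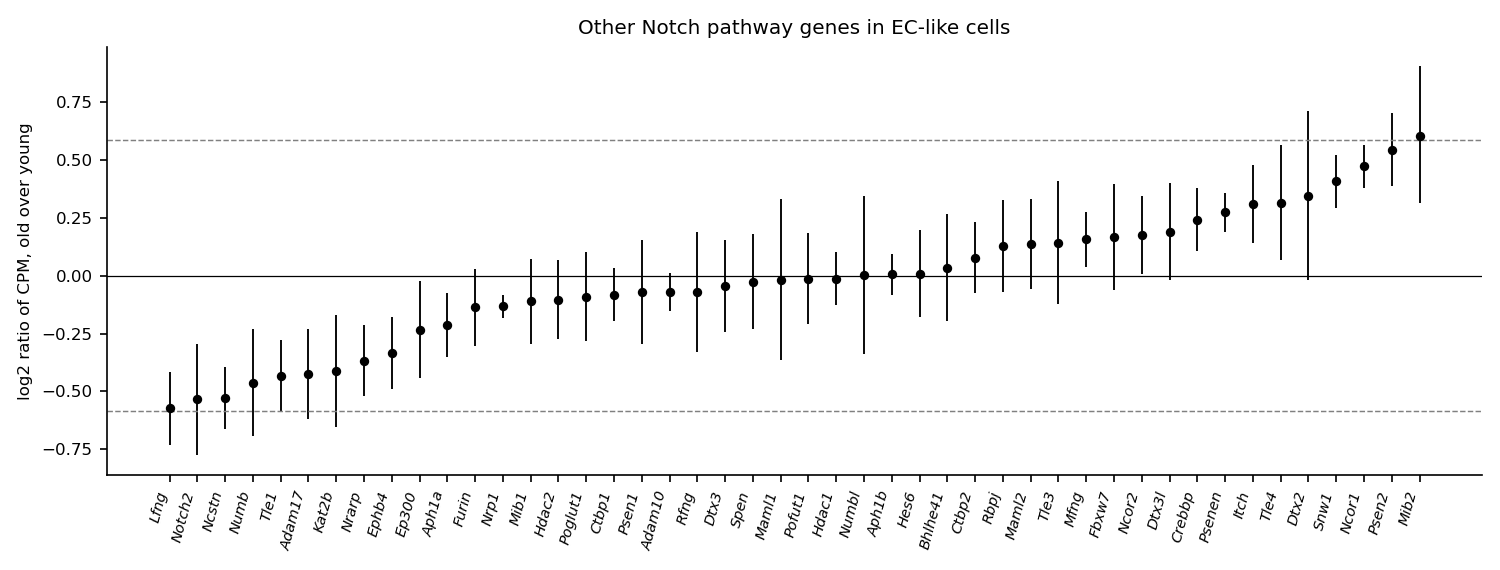
Log2 ratio of CPM, old over young, of the 46 other Notch pathway genes with at least 100 UMIs in EC-like cells, ordered by the ratio; bars are exact 95% counting intervals and dashed lines mark 1.5-fold. Mib2 (0.60) is the 1 gene past the upper line, and Lfng (-0.57) comes nearest to the lower one; with TMM factors Mib2 (0.55) falls inside it and Lfng (-0.63) passes the lower one.

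To show which genes had patterns most like each member, log2(CPM + 10) was compared over the 9 groups of at least 50 cells (5 endothelial, the old and young fibroblast-like cells, and the old macrophage-like and T or NK-like cells), among 8276 genes. These correlations describe 9 groups of 2 libraries that share depth and free RNA. Hey2 came closest to Tm4sf1, Clec1a and Clec14a (Pearson's r of 0.998, 0.998 and 0.997), Efnb2 to Mapk3, Sec14l2 and Cdc42ep1 (0.997, 0.996 and 0.994), and Notch1 to Atg101, Inpp5k and Arhgap31 (0.995, 0.994 and 0.992). Notch4 came closest to Tspan7, Tbkbp1 and Plek2 (0.997, 0.995 and 0.995) and Dll1 to Plek2, Lrrc16a and Rab11a (0.992, 0.991 and 0.987). Dll4 came closest to Uqcrc1, Ushbp1 and Mllt6 (0.995, 0.991 and 0.991) and Jag1 to Pls3, Ctif and Rab18 (0.988, 0.987 and 0.984). Of these members, Notch1, Notch4, Dll1, Dll4, Hey2 and Efnb2 were also higher in EC-like than in fibroblast-like cells, while Jag1 had like levels in both. Which contrast between the groups sets these correlations was not tested. Hes1 stood apart: its nearest genes, Mocs1, Kiz and Slc33a1, reached 0.841, 0.840 and 0.783.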

How the data were processed

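Aortic lining cells of 1 old and 1 young mouse were sequenced with a droplet 3′ kit, version 2. In the files the authors deposited, each value is a raw UMI count of 1 gene in 1 barcode. Cell Ranger and the GRCm38 genome are named in the submitters' processing notes. Neither the Cell Ranger version nor the gene annotation is given in the sources used here. The members and lists were chosen with earlier results of these data known.

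A barcode needed 200 genes and no more than 10% mitochondrial UMIs, and 72 old and 1 young barcodes failed. Scrublet called 6 old and 6 young doublets, which were removed, and doublets may remain among the rest. Cells of both libraries were clustered together without batch correction (scanpy 1.11.5, 2000 variable genes, 30 components, 15 neighbours, Leiden resolution 0.5) on genes other than the members and the pathway list. Clusters were named after the fixed marker list with the highest mean share of detecting cells, given 3 markers in 25% of cells, and stayed unnamed where a second list led their top 10 genes. Endothelial subtypes are clusters with 2 of 3 fixed subtype markers among their top 10 genes.

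UMIs were summed per class and library and scaled to the class total (CPM). Ratios of old over young carry exact conditional binomial 95% intervals, and levels and shares exact Poisson and Clopper-Pearson ones. Where few cells hold most UMIs of a gene, its interval can be too narrow. A count of 0 was taken to allow 3 counts. Named pathway genes are those past 1.5-fold with 100 UMIs and the 4 highest in old, and for each member with 200 UMIs the 3 genes most like it. The ratio code was tested on simulated counts for 10023 genes. Alternatives used edgeR 4.0.16 TMM factors and DESeq2-style median-ratio factors, other filters, depths and cell assignments. The ratios in fibroblast-like cells under these, both cell-by-cell assignments of subtypes as settings for ratios, and the mean over 50 thinning draws were added after seeing the data.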

Additional observations from a re-analysis of the deposited data

Results flagged for a closer look

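Hes1 had opposite signs in the 2 largest cell classes. Its log2 ratio of old over young was -1.16 in EC-like cells (87.6 CPM in old, 197 CPM in young) and 2.14 in fibroblast-like cells (324 CPM in old, 73.4 CPM in young). The difference between these ratios was not tested, since each age is 1 library. It was negative in both endothelial subtypes compared and positive in both fibroblast-like clusters.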

How the results depend on the processing

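No paired analysis was possible because each age is 1 library. Hes1 kept its sign in every alternative run, with log2 ratios from -1.25 to -1.13 in EC-like cells, -2.03 to -1.39 in the Coch subtype, -1.58 to -0.81 in the other EC-like cells and 1.90 to 2.30 in fibroblast-like cells. The count of members higher in old EC-like cells by 1.5-fold was 1, and became 0 with TMM factors, with median-ratio size factors, with cells thinned to 1 depth, at Leiden resolution 1.0, with classes from each cell's own markers, in the 110 old and 365 young cells with no haemoglobin, macrophage or smooth muscle UMI, and at a ratio of 2. The count lower was 1, and became 2 with median-ratio factors (Hey1 at -0.59), with the mean over cells of UMIs per 10000 (Jag1 at -0.61), with thinned cells (Hey1 at -0.84) and in the cells free of those markers (Jag1 at -0.999), where the median of the members was -0.27. In the Coch subtype the count higher, 0, became 1 (Dll4) with subtypes from the 6 markers at 1 depth, and the count lower became 2 with a filter of 500 genes and 5% mitochondrial UMIs. In the other EC-like cells it became 2 with thinned cells, with that stricter filter, with classes from each cell's own markers and with subtypes from the 6 markers, and 3 in the cells free of other cells' markers. The pathway list had 1 gene higher and 0 lower, which became 2 higher with at least 20 UMIs, and 0 higher and 3 lower with TMM factors. The share of fibroblast-like cells with Notch4, old minus young, turned to -0.33 points at 2000 UMIs per cell, and the Hey1 share with minus without Dll1 in old EC-like cells turned to 0.54 points with another random draw. TMM, median-ratio factors and totals without mitochondrial, haemoglobin and ribosomal protein genes moved the median of all genes in fibroblast-like cells by 0.10, 0.10 and 0.15 on the log2 scale. The clean-cell subset of the Coch subtype held too few cells for a value. Other causes of these shifts were not tested. Depth limits Hey1, Jag2 and all pairs with them.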
